A study of Mus musculus with 5 samples.

Results

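The proteasome genes were taken as every gene symbol in the count files that begins with Psm, followed by a letter from a to g and a number, with an optional final a or b. The rule found 49 of 55291 symbols, and 48 of them passed the filter on low counts. The exception, Psmb11, which encodes a catalytic subunit of thymic epithelium, had 0 counts in all 5 libraries. The RNA sequenced came from mouse bone marrow, from cells labelled as monocytes, in 2 Tet2-mutant samples (replicates 2 and 3) and 3 wild-type samples (replicates 1, 2 and 3). The sources used here do not give a treatment, age or strain, the Tet2 allele, the meaning of HR in the mutant titles, how the cells were isolated or whether each sample was 1 animal. The p-values therefore measure only the spread among these libraries, and that spread may be technical. Tet2 is an enzyme that oxidises methylated cytosine, and its loss is common in clonal blood disease.

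The proteasome cuts ubiquitin-tagged proteins into peptides. Its core, the 20S particle, is a stack of rings of alpha and beta subunits, of which Psmb5, Psmb6 and Psmb7 carry the cutting sites. In cells exposed to interferon-gamma, and constitutively in many blood cells, Psmb8, Psmb9 and Psmb10 are built in instead and form the immunoproteasome, which favours peptides that fit MHC class I molecules. A cap opens the core, either the 19S particle, which binds and unfolds ubiquitinated proteins, or PA28, a ring made of Psme1 and Psme2 that interferon-gamma also induces. Monocytes, macrophages and dendritic cells are among the cells known for a high content of immunoproteasome.

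Start regions of member genes were available from RefSeq (GRCm38.p6) for 41 of the 49 members, as 44 windows of 300 bases that run from 250 bases before the start into the first 50 transcribed bases. The windows below show 3 of the inducible members and the constitutive Psmb5, from 130 bases before the start to the first 20 transcribed bases. The windows of Psmb8 and Psme1 hold the 2 matches to interferon-related motifs found in the 5 inducible genes. Psmb9, Psmb10 and Psme2 had no such match, and of these Psmb9 is shown. Psmb5 is a constitutive counterpart, also without such a match. Capitals mark a match to the gamma-activated site TTCNNNGAA, an element of interferon-gamma-induced genes, or to the core of the interferon-stimulated response element on either strand, which is GAAA, any 2 bases and GAAA.
Psmb8, chr17:34198065-34198214, plus strand: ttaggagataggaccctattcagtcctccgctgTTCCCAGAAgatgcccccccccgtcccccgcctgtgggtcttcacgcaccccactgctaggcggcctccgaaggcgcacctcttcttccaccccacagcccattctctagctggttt
Psmb9, chr17:34187311-34187460, minus strand: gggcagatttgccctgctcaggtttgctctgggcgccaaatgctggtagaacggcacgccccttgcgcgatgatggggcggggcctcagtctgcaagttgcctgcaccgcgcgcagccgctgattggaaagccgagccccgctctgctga
Psme1, chr14:55578364-55578513, plus strand: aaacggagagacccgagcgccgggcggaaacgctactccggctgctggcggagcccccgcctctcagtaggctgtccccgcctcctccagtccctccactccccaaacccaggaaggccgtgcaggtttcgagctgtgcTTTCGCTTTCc
Psmb5, chr14:54617976-54618125, minus strand: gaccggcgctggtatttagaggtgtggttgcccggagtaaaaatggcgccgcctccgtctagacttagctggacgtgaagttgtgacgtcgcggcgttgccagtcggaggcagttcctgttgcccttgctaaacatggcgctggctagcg

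Counted from the first transcribed base as 0, the Psmb8 match lay at -97 to -89 and the Psme1 match at 9 to 18. The printed windows of Psmb8, Psmb9 and Psme1 lie wholly inside their genes in the GENCODE M21 annotation. There these genes start at 34197721, 34187764 (minus strand) and 55578123, so that the RefSeq starts used here are not the first annotated ones. Over the full windows on both strands, the response element core was found in 5 of 44 member windows (Psmb3, Psmd4, Psmd9, Psme1 and Psmg4), against 3.44% of all 32851 windows in the table. The gamma-activated site was found in 3 of 44 (Psmb8, Psmd2 and Psmg1), against 8.30% of all windows. The core of the site of Nrf1 and Nrf2, factors that can raise proteasome genes, is TGANNNNGC. It was found in 25 of 44, against 41.3%, and CCAAT in 14 of 44, against 37.4%. A TGANNNNGC match overlapped the gamma-activated site in Psmg1 and the response element core in Psmg4. A match is a string of letters and not a known binding site, and a window without one says only that these letters are not in it.

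In the Tet2-mutant libraries the inducible catalytic subunits and PA28 were 3.81 to 7.19 times as abundant as in the wild type. Psmb8, Psmb9, Psmb10, Psme1 and Psme2 all rose. Of the constitutive catalytic subunits, Psmb6 rose 2.51-fold, and Psmb5 and Psmb7 did not pass the test. A gene was called changed when its p in edgeR's quasi-likelihood F-test, adjusted by Benjamini and Hochberg's method over the 17062 genes tested, was under 0.05. Of the 48 tested members 14 rose. Of all tested genes 10.6% rose and 15.0% changed in either direction, and 18.1% rose among those that averaged 20 CPM or more. Without the 5 inducible genes, 9 of 43 tested members rose (20.9%), a share near that of genes averaging 20 CPM or more. CPM is a gene's count relative to the library size after TMM scaling. No member fell by edgeR's test, against 4.43% of all tested genes. At an unadjusted p under 0.05, 27 members were higher and 2 lower, against 20.5% and 18.6% of all tested genes. DESeq2 called 20 members higher and 1 lower, against 17.4% and 12.5% of all tested genes. Log2 fold changes, mutant over wild type, had a median of 0.77 over the members and of -0.08 over all tested genes. Both mutant libraries were above every wild-type library for 33 of the 48 members, against 22.9% of all tested genes, and below every one for 3, against 33.3%. The shares over all tested genes include genes of low level. Among genes averaging 20 CPM or more, only the share that rose by edgeR was counted, so the other shares here and below are not matched for level.

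The libraries held 17459808 and 60508381 counts in Tet2-mutant replicates 2 and 3, and 53789308 to 72414875 in the wild type. The mutant libraries stood apart from the wild type beyond the proteasome genes. They had 18047 and 17944 gene symbols with at least 1 count in replicates 2 and 3, against 24532 to 26207 in the wild type, and TMM factors of 0.723 and 0.896, against 1.14 to 1.168. The chi-square per gene between 2 libraries' counts was 561 to 1420 between the genotypes, 330 between the mutant libraries and 103 to 165 within the wild type. What part these features have in the proteasome values was not tested. The 49 members took 1.27% and 1.30% of all counts in Tet2-mutant replicates 2 and 3, and 0.775%, 1.0% and 1.02% in wild-type replicates 1, 2 and 3. Their Wilson 95% intervals run from 1.26% to 1.27% and from 1.29% to 1.30% in the mutant, and from 0.772% to 1.02% over the 3 wild-type libraries, and cover counting error only. Wild-type replicate 1 was the lowest wild-type library for 45 of 48 members, against 37.5% of all tested genes. The spread within a genotype was under 2-fold for all 48 members in the wild type, and for 43 in the mutant. The exceptions were Psme3, Psme4 and Psmd9, higher in Tet2-mutant replicate 2 by 3.51, 2.27 and 2.53 times, and Psmg4 and Psme2b, higher in replicate 3 by 3.48 and 2.09 times.

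For some cell types, though not all, marker transcripts also differed between the genotypes. The label monocytes was met in part. Of 10 monocyte markers, all detected in every library, 3 were higher in the mutant (Csf1r, Fcgr1 and Ms4a6c) and 1 was lower (Itgam). The 10 markers summed to 19420 to 30020 CPM in the mutant and 13590 to 15220 CPM in the wild type. Most of each sum was Lyz2, with 26900 and 17870 CPM in the mutant and 11870 to 13290 CPM in the wild type. Lyz2 itself did not pass (edgeR adjusted p = 0.0928), so these sums say little about the other monocyte markers. Neutrophil markers summed to 24130 to 54360 CPM in the mutant and to 48930 to 61520 CPM in the wild type, with 0 of 10 called by edgeR, 3 lower at an unadjusted p under 0.05 and 2 lower by DESeq2. Macrophage markers were higher for 9 of 10 genes, at 7429 to 8344 CPM in the mutant and 551.3 to 692.2 CPM in the wild type. Dendritic cell markers were higher for 6 of 10, at 838.5 to 851.9 CPM in the mutant and 94.9 to 113.6 CPM in the wild type. T and NK cell markers were higher for 4 of 10, at 1068 to 1229 CPM in the mutant and 249.6 to 330.1 CPM in the wild type. The NK cell marker Klrb1c of that list went the other way. It had 1.66 and 1.55 CPM in the mutant and 3.59 to 12.99 CPM in the wild type. It was lower at an unadjusted p under 0.05 and by DESeq2, but did not pass edgeR's adjusted threshold. B cell markers were higher for 3 of 8, at 981.6 and 7502 CPM in the mutant and 144.6 to 727.3 CPM in the wild type. Pancreatic acinar markers were higher for 10 of 10, at 691.5 and 1785 CPM in the mutant and 40.21 to 56.65 CPM in the wild type. Most of the wild-type sum was Cela1, with 37.74 to 52.92 CPM. Prss2, for example, had 124.3 and 188.7 CPM in the mutant and 0.584 to 0.881 CPM in the wild type. Erythroid markers (0 of 8 called by edgeR or DESeq2, 1 lower at an unadjusted p under 0.05) summed to 13700 and 2026 CPM in the mutant and to 5733 to 15710 CPM in the wild type. Proliferation markers (0 of 8 called by edgeR or DESeq2, 2 lower at an unadjusted p under 0.05) summed to 1548 and 396.3 CPM in the mutant and to 1859 to 2411 CPM in the wild type. Over all tested genes, 10.6% were higher and 4.43% lower by edgeR. The shares that were lower at an unadjusted p under 0.05 and by DESeq2 were 18.6% and 12.5%. None of the markers in these lists was at 0 in any library. Their part in the proteasome values was not tested, and in bulk RNA more cells of a type and more transcript per cell cannot be told apart. The source of the pancreatic acinar transcripts in these marrow samples was not tested either.

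Psmb8, the inducible chymotrypsin-like subunit, had 1821 and 1415 CPM in the mutant (replicates 2 and 3) and 204.2, 234.7 and 236.1 CPM in the wild type (replicates 1, 2 and 3). The groups did not overlap, with a mean of 1618 ± 287 CPM in the mutant (SD, n = 2) and 225 ± 18.0 CPM in the wild type (SD, n = 3). The log2 fold change was 2.85 ± 0.25 (SE), with edgeR adjusted p = 0.00156, and Psmb8 had the largest log2 fold change of the 48 members. Its gene lies on chromosome 17 within 34.3 kb that also hold Psmb9, Tap1 and Tap2 (34181987 to 34216321, GRCm38, GENCODE M21), inside the MHC region.

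Psmb10, the inducible trypsin-like subunit on chromosome 8, had 476.4 and 438.5 CPM in the mutant and 67.72, 92.65 and 88.02 CPM in the wild type. The groups did not overlap, and the log2 fold change was 2.47 ± 0.25 (SE; edgeR adjusted p = 0.00212). Psmb9, the inducible subunit that takes the place of Psmb6, had 530.1 and 464.7 CPM in the mutant and 102.0, 132.9 and 138.0 CPM in the wild type. Its log2 fold change was 2.001 ± 0.25 (SE; edgeR adjusted p = 0.00462), again without overlap. The Psmb9 and Tap1 exons overlap by 212 bases on opposite strands, and since the strand setting of the counting is not given, reads from that stretch cannot be assigned to either gene. Exons of Psmb8 share 498 bases with Gm20496, and those of Psmb7 share 405 bases with Nek6, in the same way. The largest such overlap was that of Psmd9, with 1849 bases shared with Gm26745 on the opposite strand. Psmd1 shares 301 bases with Gm21972 on the same strand and 252 with Htr2b on the opposite strand. The values given below for these 2 members carry the same limit.

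Of the constitutive counterparts, 1 of 3 rose, against 10.6% of all tested genes. Psmb5, which Psmb8 replaces, had 78.27 and 131.1 CPM in the mutant and 65.78, 104.4 and 95.66 CPM in the wild type, so that the groups overlapped. Its log2 fold change was 0.24 ± 0.33 (SE; edgeR adjusted p = 0.597), and it was -0.19 without Tet2-mutant replicate 3 (adjusted p = 0.645). Psmb7, which Psmb10 replaces, had 56.09 and 59.66 CPM in the mutant and 42.74, 57.9 and 56.93 CPM in the wild type, with a log2 fold change of 0.14 ± 0.28 (SE; edgeR adjusted p = 0.727). Its groups overlapped too, and the sign was negative (-0.13) under upper-quartile scaling. Psmb6, which Psmb9 replaces, rose: it had 677.9 and 552.1 CPM in the mutant and 198.2, 278.2 and 260.1 CPM in the wild type. The groups did not overlap, and the log2 fold change was 1.32 ± 0.26 (SE; edgeR adjusted p = 0.0223).

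**Figure D1:**
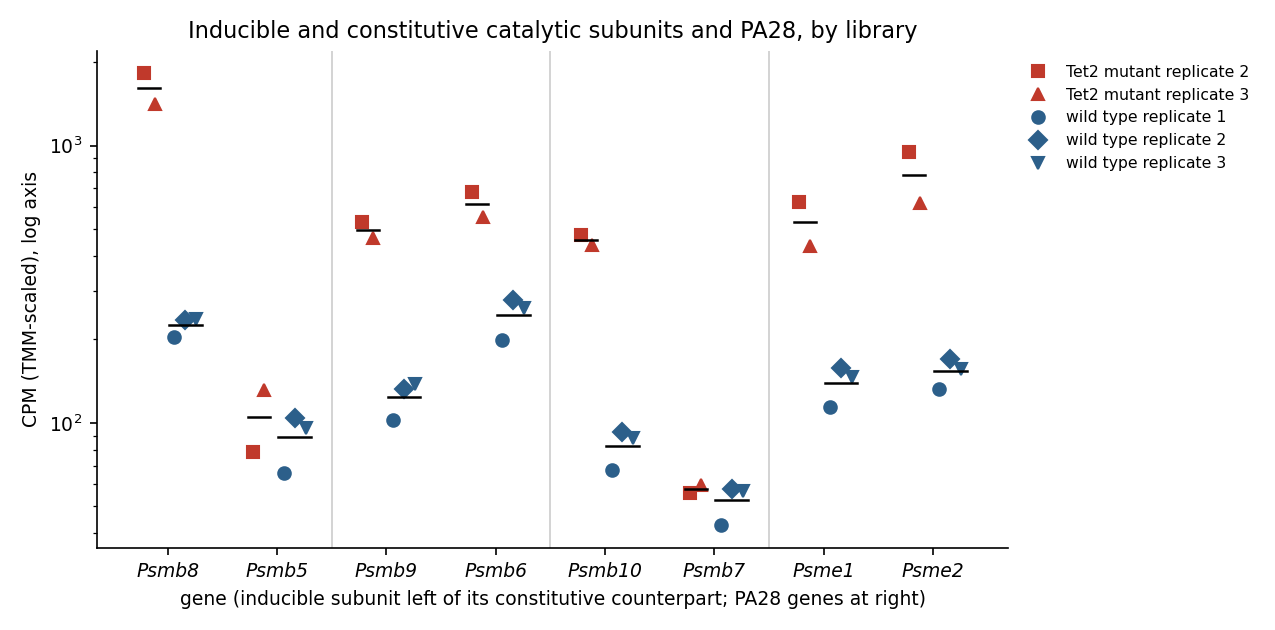
Levels of the inducible subunits Psmb8, Psmb9 and Psmb10, each left of its constitutive counterpart, and of the PA28 genes, in CPM on a log axis. Each symbol is 1 library (red, Tet2 mutant; blue, wild type) and each black line the mean of a genotype; the genotypes overlap for Psmb5 and Psmb7 and for no other gene shown.

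Within a library, the ratio of an inducible subunit to its counterpart does not depend on how libraries are scaled. Psmb8 had 23.3 and 10.8 counts for each Psmb5 count in Tet2-mutant replicates 2 and 3, and 3.10, 2.25 and 2.47 in wild-type replicates 1, 2 and 3. Psmb10 had 8.49 and 7.35 counts for each Psmb7 count in the mutant, and 1.58, 1.60 and 1.55 in the wild type. Psmb9 had 0.782 and 0.842 counts for each Psmb6 count in the mutant, and 0.515, 0.477 and 0.530 in the wild type. In each pair both mutant libraries were above all wild-type libraries, and for Psmb8 to Psmb5 the mutant libraries also differed from each other by more than 2-fold. The mutant ratio exceeded the wild-type ratio by 2.62 on the log2 scale for Psmb8 to Psmb5, 2.33 for Psmb10 to Psmb7 and 0.68 for Psmb9 to Psmb6. Each of the 3 pairs gave p = 0.2 in a two-sided exact permutation test over the 5 libraries, which is the smallest p that this test, doubling the smaller tail, can give over the 10 possible splits, and p = 0.2 after Benjamini-Hochberg adjustment over the 3 pairs.

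**Figure D2:**
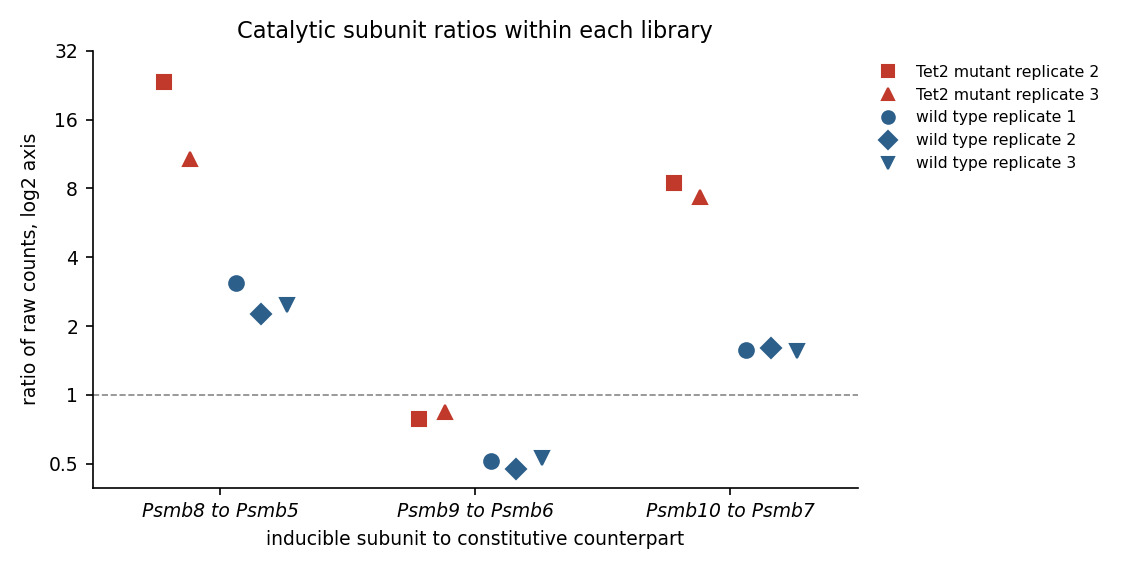
Ratio of raw counts of each inducible catalytic subunit to its constitutive counterpart, on a log2 axis, with 1 symbol per library (red, Tet2 mutant; blue, wild type) and a dashed line at equal counts. The mutant libraries lie above the wild-type libraries in all 3 pairs, from 7.35 to 8.49 against 1.55 to 1.60 for Psmb10 to Psmb7.

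Levels of different genes were compared per length, as mean CPM per kilobase of the longest APPRIS principal transcript in GENCODE M21. On that scale Psmb8 averaged 994 CPM per kilobase in the mutant and 138 in the wild type, and Psmb5 averaged 116 in the mutant and 98.6 in the wild type. Psmb10 averaged 349 CPM per kilobase in the mutant and 63.2 in the wild type, and Psmb7 averaged 49.9 in the mutant and 45.3 in the wild type. Psmb9 averaged 368 CPM per kilobase in the mutant and 91.9 in the wild type, below Psmb6 with 771 in the mutant and 308 in the wild type. The order inside each pair was thus the same in both genotypes, with Psmb8 above Psmb5, Psmb10 above Psmb7 and Psmb9 below Psmb6. These levels depend on the transcript chosen, which the counting need not have used.

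PA28 rose with the inducible catalytic subunits. Psme2, its beta subunit, had 948.1 and 620.1 CPM in the mutant and 132.6, 170.3 and 157.0 CPM in the wild type, a log2 fold change of 2.35 ± 0.28 (SE; edgeR adjusted p = 0.00404). Psme1, its alpha subunit, had 624.0 and 434.9 CPM in the mutant and 113.7, 157.3 and 145.8 CPM in the wild type, with a log2 fold change of 1.93 ± 0.27 (SE; edgeR adjusted p = 0.00776). The groups did not overlap for either gene, and Tet2-mutant replicate 2 was the higher mutant library for both. The genes lie within 13 kb on chromosome 14 (55578123 to 55591113, GRCm38). Psme2b, on chromosome 11, is a retrogene of Psme2, and 68.7% of the 50-base stretches of its annotated transcript also occur in Psme2, so that their reads may be shared. It had 4.91 and 10.3 CPM in the mutant and 4.06 to 4.84 CPM in the wild type, and did not pass (log2 fold change 0.80 ± 0.61, SE; edgeR adjusted p = 0.345).

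The caps outside this pair, Psme3 (PA28 gamma, a nuclear activator) and Psme4 (PA200), did not pass. DESeq2 and an unadjusted p under 0.05 also called 0 of these 2, while of all tested genes 17.4% and 20.5% were called higher. Psme3 had 642.2 and 183.1 CPM in the mutant and 263.4, 258.5 and 367.0 CPM in the wild type, so that the mutant libraries lay on both sides of the wild type. Its log2 fold change was 0.48 ± 0.49 (SE; edgeR adjusted p = 0.481). Without Tet2-mutant replicate 2 it was -0.70 (adjusted p = 0.0779), while leaving out Tet2-mutant replicate 3 gave 1.11 (adjusted p = 0.0197), past the threshold. Psme4 had a log2 fold change of 0.07, and of -0.64 without Tet2-mutant replicate 2 (adjusted p = 0.0662). Psmf1, the proteasome inhibitor PI31, had 142.5 and 111.3 CPM in the mutant and 107.9, 125.0 and 157.5 CPM in the wild type, with overlapping groups and a log2 fold change of -0.04 (edgeR adjusted p = 0.929).

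Of the 14 constitutive 20S subunits, the 3 catalytic ones included, 7 rose, and the median log2 fold change was 0.97. Of all tested genes 10.6% rose, and of those averaging 20 CPM or more 18.1%. All 7 alpha subunits, Psma1 to Psma7, had both mutant libraries above every wild-type library, against 22.9% of all tested genes. The log2 fold changes of the 7 were 0.75 to 1.39, and 3 of them rose. Psma7 had 1285 and 763.2 CPM in the mutant and 314.7, 430.3 and 429.0 CPM in the wild type (log2 fold change 1.39 ± 0.31, SE; edgeR adjusted p = 0.0326). Psma1 had 683.0 and 721.8 CPM in the mutant and 256.2, 364.2 and 365.9 CPM in the wild type (1.09 ± 0.26 on the log2 scale; edgeR adjusted p = 0.0371). Psma3 had 226.1 and 244.2 CPM in the mutant and 98.6, 138.5 and 135.1 CPM in the wild type. It was just inside the threshold, with a log2 fold change of 0.92 (edgeR adjusted p = 0.0495), and Psma4 just outside it, with a log2 fold change of 0.96 (edgeR adjusted p = 0.0519). The 7 alpha subunits were all higher at an unadjusted p under 0.05, and DESeq2 called 6 of them higher. The matching shares of all tested genes were 20.5% and 17.4%. Without wild-type replicate 1, Psma7 (adjusted p = 0.0562), Psma1 (0.0742) and Psma3 (0.101) all lost their calls. Psma3 was also not called with the filter of 1 CPM in 3 libraries (0.0572). Psma1 and Psma3 also lost theirs without wild-type replicate 2 (0.0646 and 0.0813) and without wild-type replicate 3 (0.0654 and 0.0862).

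Of the non-catalytic beta subunits Psmb1 to Psmb4, 3 of 4 rose, against 10.6% of all tested genes and 18.1% of those averaging 20 CPM or more. Psmb3 had 408.0 and 262.8 CPM in the mutant and 100.9, 130.4 and 120.4 CPM in the wild type (log2 fold change 1.52 ± 0.28, SE; edgeR adjusted p = 0.0177). Psmb2 had 468.2 and 416.4 CPM in the mutant and 131.2, 181.0 and 168.0 CPM in the wild type (1.47 ± 0.25 on the log2 scale; edgeR adjusted p = 0.014). Psmb1 had 370.6 and 419.2 CPM in the mutant and 142.0, 197.5 and 187.1 CPM in the wild type (1.17 ± 0.25 on the log2 scale; edgeR adjusted p = 0.0292). The groups overlapped for none of the 4 genes, against 43.8% of all tested genes. Psmb4 did not pass (log2 fold change 0.71, edgeR adjusted p = 0.132). Psmb2, Psmb3 and the catalytic Psmb6 were called in each fit that left out 1 library, while Psmb1 was not called without wild-type replicate 1, 2 or 3 (adjusted p = 0.0722, 0.0504 and 0.0621). Psma8, the alpha subunit of testis proteasomes, had few reads, with 10 and 35 counts in the mutant and 170 to 355 in the wild type. It had 0.792 and 0.646 CPM in the mutant and 2.51, 4.23 and 2.77 CPM in the wild type, and did not pass (log2 fold change -2.15 ± 0.78, SE; edgeR adjusted p = 0.0915). Psma8 was the member that DESeq2 called lower.

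**Figure D3:**
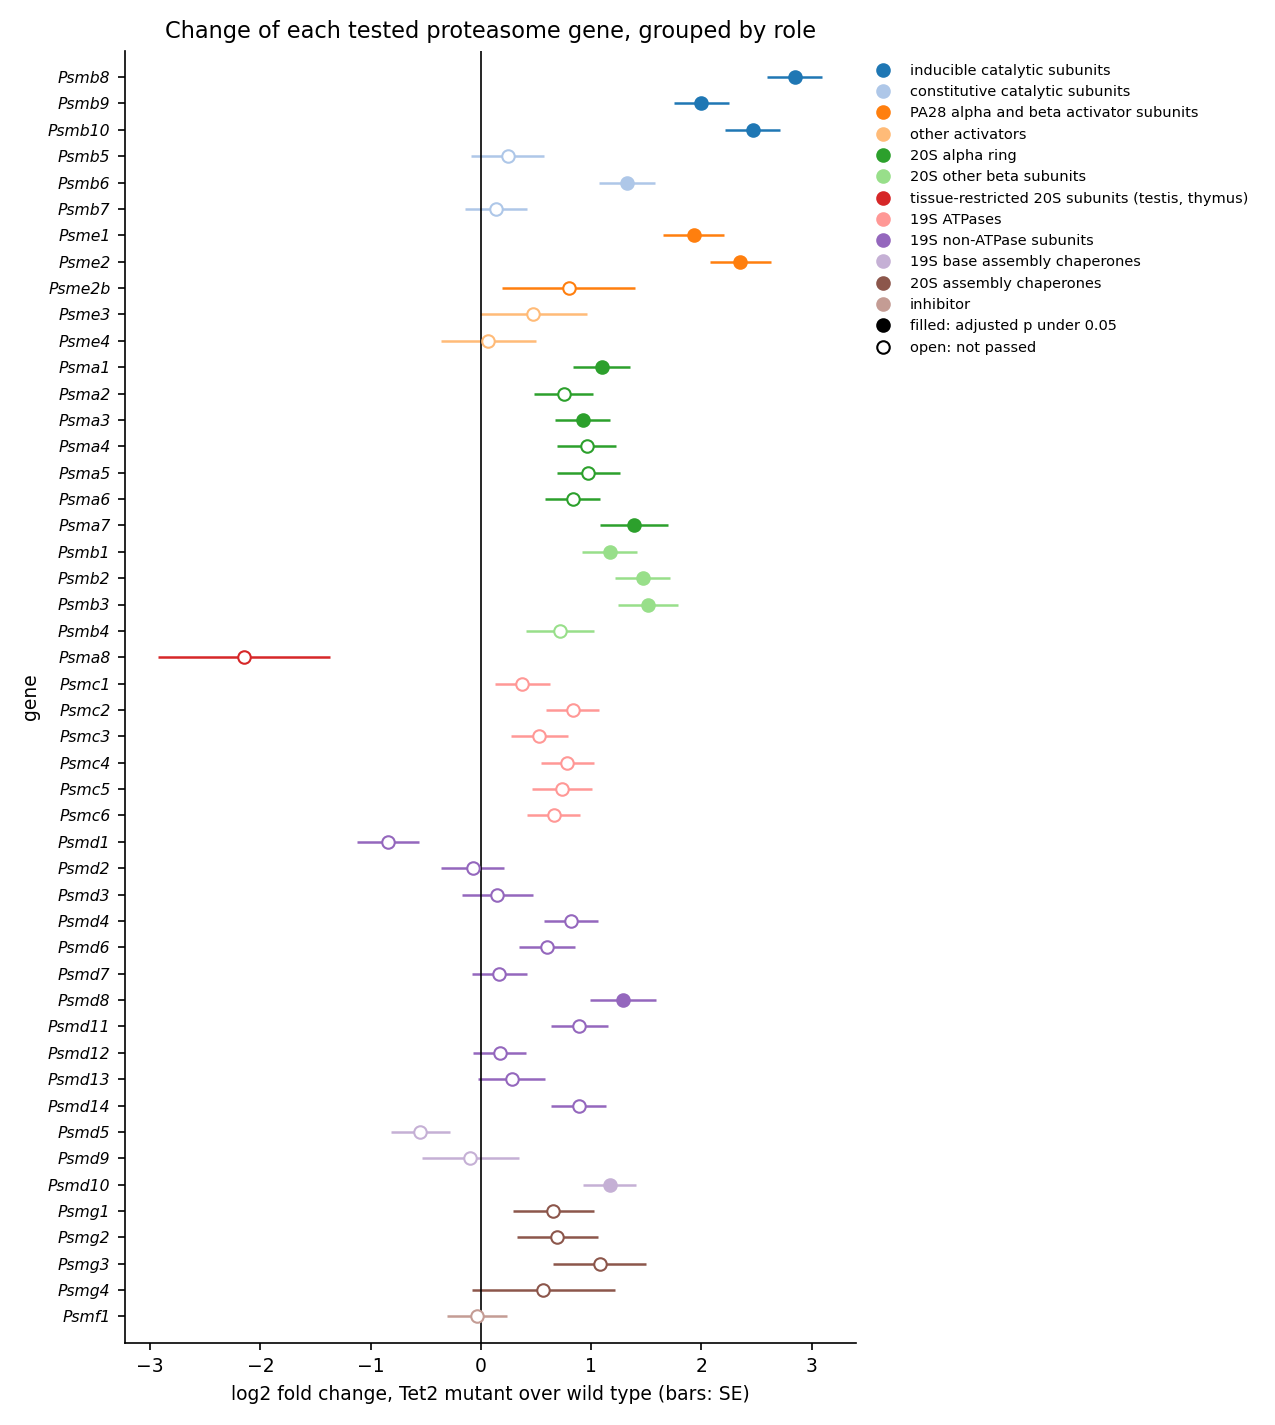
Log2 fold change of Tet2 mutant over wild type for the 48 tested members, ordered by role, with the SE as a bar. Filled symbols passed an adjusted p of 0.05 in edgeR's quasi-likelihood F-test and open symbols did not; the inducible catalytic subunits, Psme1 and Psme2 lie between 1.93 and 2.85, and the 19S subunits between -0.84 and 1.29.

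The 17 subunits of the 19S cap had a median log2 fold change of 0.60, and 1 of them rose. Of all tested genes 10.6% rose, and of those averaging 20 CPM or more 18.1%. Of its ATPases, Psmc1 to Psmc6, which unfold the substrate, 0 of 6 were called by edgeR, with 4 higher at an unadjusted p under 0.05 and 1 higher by DESeq2. The matching shares of all tested genes were 20.5% and 17.4%. All 6 ATPases had both mutant libraries above every wild-type library, against 22.9% of all tested genes, with log2 fold changes of 0.38 to 0.83. Psmc2, the largest of them, had 316.9 and 390.4 CPM in the mutant and 173.8, 204.4 and 217.5 CPM in the wild type (log2 fold change 0.83 ± 0.24, SE; edgeR adjusted p = 0.0557).

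Of the 11 non-ATPase subunits of the cap, 1 rose, and DESeq2 called 3 higher, against 10.6% and 17.4% of all tested genes. The groups overlapped for 5 of the 11, against 43.8% of all tested genes, so that neither the overlap nor the edgeR count stood away from the shares over all genes. Psmd8, a lid subunit, had 367.2 and 626.3 CPM in the mutant and 170.3, 219.0 and 220.5 CPM in the wild type (log2 fold change 1.29 ± 0.30, SE; edgeR adjusted p = 0.0359). Its call was lost without wild-type replicate 1, 2 or 3 (adjusted p = 0.108, 0.0681 and 0.069). Psmd14, the deubiquitinase that strips ubiquitin from the substrate, Psmd11, a lid subunit, and Psmd4, a ubiquitin receptor, had log2 fold changes of 0.89, 0.89 and 0.82 without passing (edgeR adjusted p = 0.0526, 0.0573 and 0.0633). Psmd1, a large scaffold of the base, went the other way, with 156.2 and 103.5 CPM in the mutant and 209.7, 222.5 and 265.9 CPM in the wild type. Its groups did not overlap, but it did not pass (log2 fold change -0.84 ± 0.28, SE; edgeR adjusted p = 0.0763). It passed with upper-quartile scaling (-1.16, adjusted p = 0.023), and leaving out Tet2-mutant replicate 2 gave -1.17 (adjusted p = 0.00896). The scaffold Psmd2 had a log2 fold change of -0.07 and the lid subunits Psmd3, Psmd7, Psmd12 and Psmd13 had 0.15 to 0.28, or -0.20 to -0.046 with upper-quartile scaling, all with overlapping groups.

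The helpers that assemble the particle were divided. Psmd10 (gankyrin), a chaperone of the 19S base encoded on the X chromosome, rose, with 138.0 and 159.4 CPM in the mutant and 56.69, 72.02 and 69.89 CPM in the wild type (log2 fold change 1.17 ± 0.24, SE; edgeR adjusted p = 0.0269). Its call was lost without wild-type replicate 1, 2 or 3 (adjusted p = 0.0781, 0.0586 and 0.0671). The base chaperones Psmd5 and Psmd9 had log2 fold changes of -0.55 and -0.10 and were not called. Psmd9 was positive without wild-type replicate 2 or 3 and without Tet2-mutant replicate 3 (0.13, 0.12 and 0.42). The 20S chaperones Psmg1 to Psmg4 had log2 fold changes of 0.57 to 1.08, with 0 of 4 called by edgeR or DESeq2 and 1 higher at an unadjusted p under 0.05. Of all tested genes, 10.6% and 17.4% were higher by edgeR and DESeq2, and 20.5% at an unadjusted p under 0.05. Psmg3 had 88.1 and 44.1 CPM in the mutant and 20.08, 35.6 and 38.26 CPM in the wild type (log2 fold change 1.08 ± 0.42, SE; edgeR adjusted p = 0.108), so that Tet2-mutant replicate 3 lay close to the wild type.

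The make-up of the proteasome transcripts differed between the genotypes as well. Psmb8, Psmb9, Psmb10, Psme1 and Psme2 together took 25.1% and 23.3% of the counts of all 49 members in Tet2-mutant replicates 2 and 3, and 9.35%, 9.11% and 8.56% in wild-type replicates 1, 2 and 3. The 14 constitutive 20S subunits took 32.4% and 33.1% in the mutant and 29.2%, 31.5% and 29.4% in the wild type. The 17 subunits of the 19S cap took 34.0% and 37.5% in the mutant and 49.3%, 47.7% and 49.2% in the wild type. The constitutive catalytic subunits Psmb5, Psmb6 and Psmb7 together took 4.63% and 5.13% in the mutant and 4.62%, 5.10% and 4.62% in the wild type. The inducible and PA28 share of the mutant libraries thus lay above all wild-type libraries and the 19S share below them, while the summed level of the 19S subunits was higher, at 5966 and 5433 CPM in the mutant and 3271 to 4394 CPM in the wild type. The share of the constitutive catalytic subunits overlapped. For the 5 inducible genes the Wilson 95% interval was at most 0.18 percentage points to either side, for counting error only, and the members' lengths enter these shares.

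**Figure D4:**
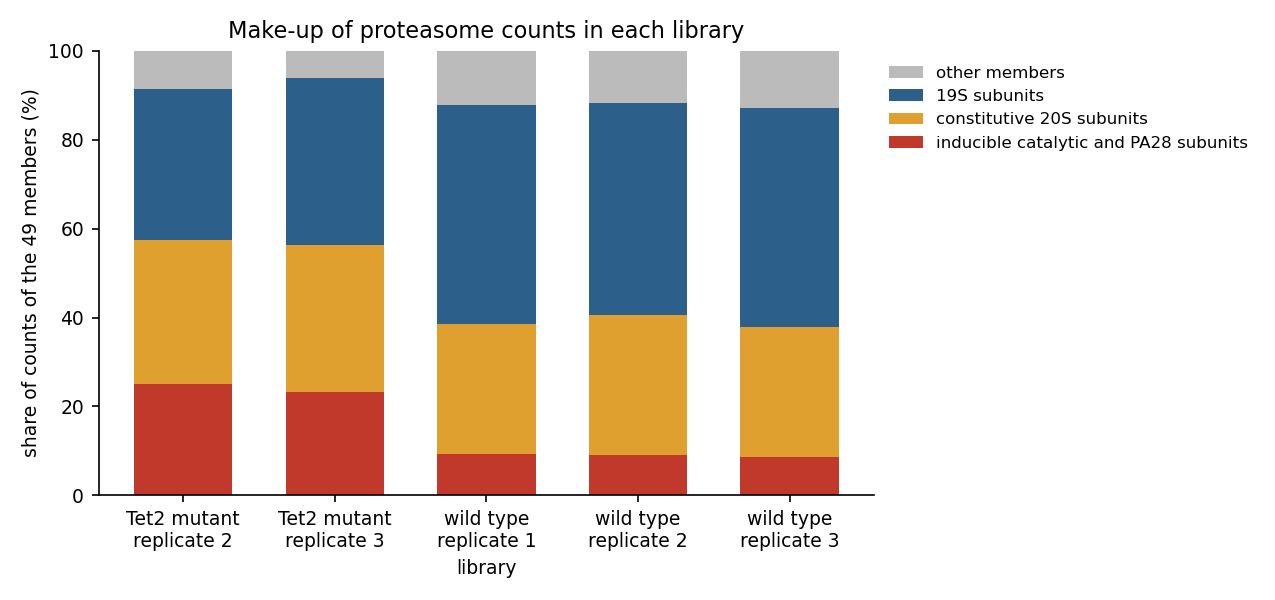
Share of the summed counts of the 49 members taken by the inducible catalytic and PA28 subunits, the constitutive 20S subunits, the 19S subunits and all other members, in each library. The inducible and PA28 share is 25.1% and 23.3% in the Tet2-mutant libraries and 8.56% to 9.35% in the wild-type libraries.

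Genes that work with the proteasome were read from a list of 34, of which 33 were measured, since the symbol Paaf1 was not found in the counts. Of the 33, 9 rose and 0 fell by edgeR, with 12 higher and 0 lower at an unadjusted p under 0.05, and 9 higher and 0 lower by DESeq2. Over all tested genes, 10.6% were higher by edgeR, 20.5% at an unadjusted p under 0.05 and 17.4% by DESeq2. Pomp, a chaperone of 20S assembly, had 706.9 and 444.8 CPM in the mutant and 104.8, 184.2 and 154.4 CPM in the wild type. Its log2 fold change was 1.96 ± 0.33 (SE, edgeR adjusted p = 0.0142). It was the only one of 7 assembly and cap partners to rise. Ubb, a ubiquitin precursor, had 5736 and 5053 CPM in the mutant and 1442 to 1672 CPM in the wild type (1.76 ± 0.25 on the log2 scale; edgeR adjusted p = 0.00812). The groups overlapped for neither gene, and the other 7 ubiquitin and extraction genes ranged from -0.70 to 0.19 on the log2 scale and were not called. None of Nfe2l1 (Nrf1), Nfe2l2 (Nrf2), Ddi2 and Ngly1, which raise or activate the transcription of proteasome genes, passed edgeR, DESeq2 or an unadjusted p of 0.05.

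Downstream of the proteasome, the peptide transporter genes Tap1 and Tap2 and the loading factor Tapbp rose, by 1.30 ± 0.27, 1.14 ± 0.26 and 1.29 ± 0.26 on the log2 scale (SE; edgeR adjusted p = 0.0268, 0.0363 and 0.0256). Tap1 and Tap2, which share the chromosome 17 stretch with Psmb8 and Psmb9, thus had smaller log2 fold changes than both neighbours; these differences were not tested. Leaving out wild-type replicate 2 or 3 ended the call of Tap2 (adjusted p = 0.0679 and 0.067). With the replicate number as a block, neither Tap1 nor Tap2 was called (edgeR adjusted p = 0.074 and 0.0901). Upstream, some genes of interferon-gamma signalling rose and others did not pass. Ifngr2, Jak1, Jak2, Irf8 and Nlrc5 did not pass, with Jak1 at -0.40 and the others at 0.39 to 0.94 on the log2 scale. Irf1, which activates immunoproteasome genes, had 466.7 and 306.2 CPM in the mutant and 87.13 to 96.79 CPM in the wild type (log2 fold change 2.05 ± 0.26, SE; edgeR adjusted p = 0.00539). The receptor chain Ifngr1 had 1275 and 968.0 CPM in the mutant and 284.8 to 317.8 CPM in the wild type (1.89 ± 0.24 on the log2 scale; edgeR adjusted p = 0.00563). Ifng itself, made by T and NK cells, had 8.16 and 15.2 CPM in the mutant and 0.942 to 1.88 CPM in the wild type (3.12 ± 0.66 on the log2 scale; edgeR adjusted p = 0.0291). Leaving out wild-type replicate 1, 2 or 3 ended that call (adjusted p = 0.1, 0.12 and 0.109).

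Psmb8, Psmb9, Psmb10, Psme1 and Psme2 were called higher in the fit as reported and in all 12 alternatives. Their highest adjusted p in any of these fits was 0.0213, for Psme1 without wild-type replicate 1. The count of the other members that rose was 9 as reported and ranged from 2 with the replicate number as a block to 20 without Tet2-mutant replicate 3. Leaving out wild-type replicate 1, 2 or 3 gave 3, 4 and 4, and leaving out Tet2-mutant replicate 2 gave 17. Where a mutant library was left out, the spread came from the wild-type libraries alone and was taken to hold for the single mutant one. With upper-quartile scaling the median over all genes shifted by -0.28 on the log2 scale, and the share of higher genes among those called came to 43.6%, against 70.5% as reported. With that scaling 4 of the other members rose (Psmb2, Psmb3, Psmb6 and Psma7).

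**Figure D5:**
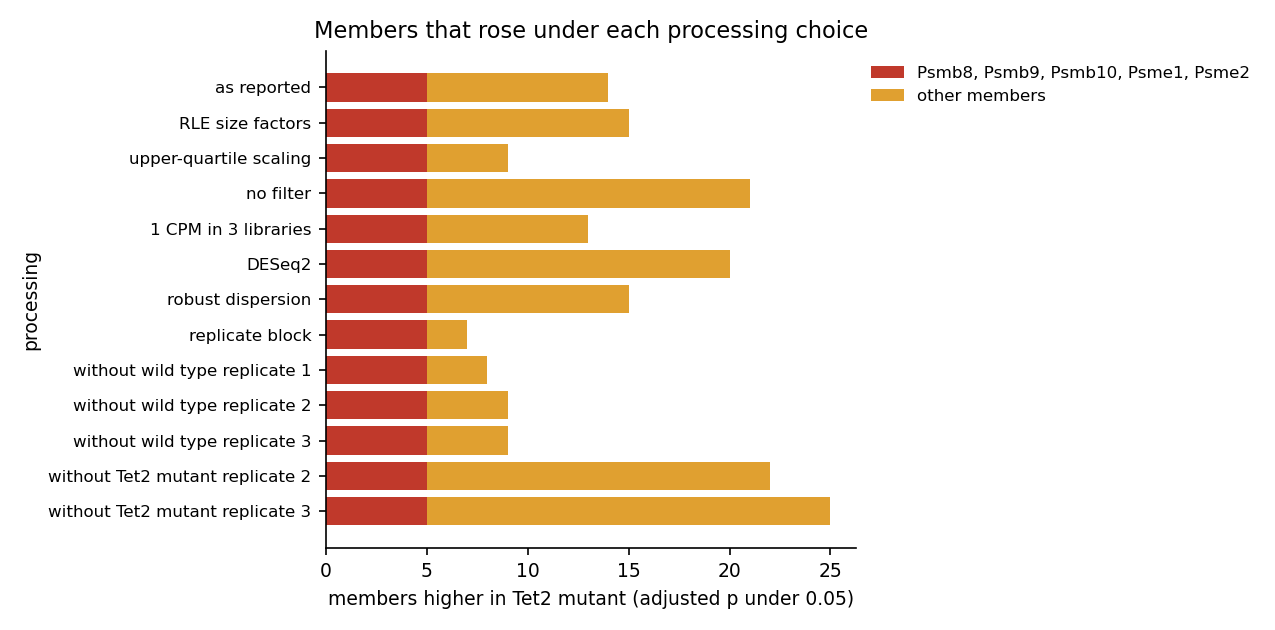
Number of members called higher in the Tet2 mutant (adjusted p under 0.05) in the fit as reported and under each of 12 other processing choices, divided into Psmb8, Psmb9, Psmb10, Psme1 and Psme2 (red) and all other members (yellow). The red part is 5 throughout, and the yellow part ranges from 2 to 20.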

How the data were processed

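The authors deposited a file of raw counts for each library, with whole numbers for 55291 gene symbols. Per the labels' protocols, libraries were made from 1.3 ug of total RNA by the SMARTer method. The submitters' processing notes name Trimmomatic, STAR and mm10; versions, the read counter, its annotation and its strand setting are unstated there. No molecular identifiers are named, so intervals cover counting error only.

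For the results above, filterByExpr left 17062 genes and TMM set the library sizes. The genotypes were tested in edgeR 4.0.16 (quasi-likelihood F-test, no covariate, all 5 libraries, Benjamini-Hochberg adjustment), under R 4.3.3 with limma 3.58.1. The fit was also run on simulated counts with known changes, drawn with the same variation between libraries for every gene. That setting is simpler than these data, and nothing above rests on it. DESeq2 1.42.0 served as an alternative. An SE is the size of the log2 fold change over the root of F. edgeR's common biological variation between libraries was 0.507, as a coefficient. Members, roles, partners and markers were chosen with earlier results of these data known. Every member could be named, and 1 partner is counted but not reported here. Values in each library are given for the inducible genes and their counterparts, for called members (up to the 4 smallest p per role), and for the largest log2 fold change of each role. Positions and lengths come from GENCODE M21 and start regions from RefSeq (GRCm38.p6).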

Additional observations from a re-analysis of the deposited data

How the results depend on the processing

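Against 2556 changed genes as reported, 4557 were called with no filter, 5109 with DESeq2, 984 with the replicate block, and 622 to 10862 when 1 library was left out. Members that rose numbered 14 as reported, 9 with upper-quartile scaling, 7 with the replicate block and 8 to 25 when 1 library was left out. The count was 15, 21, 13, 20 and 15 with RLE size factors, no filter, 1 CPM in 3 libraries, DESeq2 and robust dispersion. Members that fell numbered 0 as reported, 1 with upper-quartile scaling, 1 with DESeq2 and 0 to 2 when 1 library was left out. Partners that rose numbered 6 to 14, and partners that fell 0 to 4, when 1 library was left out. The cause of these shifts was not tested. The log2 differences of the ratios ranged from 2.06 to 3.17 for Psmb8 to Psmb5, 0.63 to 0.73 for Psmb9 to Psmb6 and 2.22 to 2.43 for Psmb10 to Psmb7 when 1 library was left out.

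Some uncalled members changed the sign of their log2 fold change. Psmf1 was 0.007 with RLE size factors and with DESeq2. With upper-quartile scaling Psmb7 was -0.13, Psmd12 -0.11, Psmd13 -0.046, Psmd3 -0.20, Psmd7 -0.10 and Psme4 -0.29. Psmd3 was -0.006 with the replicate block, and Psme4 was 0 with the filter of 1 CPM in 3 libraries. When 1 library was left out, Psmb5 ranged from -0.19 to 0.57, Psmd2 from -0.49 to 0.24, Psmd3 from -0.40 to 0.54, Psmd9 from -0.91 to 0.42 and Psmd13 from -0.085 to 0.56. Psme3 ranged from -0.70 to 1.11, Psme4 from -0.64 to 0.54, Psmf1 from -0.23 to 0.26 and Psmg4 from -0.61 to 1.196.

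Numbers 2 and 3 occur in both genotypes, but no label says that a number marks a shared animal or day. Same-numbered libraries correlated at -0.03 and -0.02 after removal of the genotype means. With the replicate number as a block, 7 members rose, namely the 5 inducible ones, Psmb2 and Psmb3. Precision is limited by the 2 mutant libraries, the smaller of which holds 17459808 counts.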

Other observations

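Symbols that begin like the members but fall outside the rule were read for reads lost to copies. The pseudogenes Psma5-ps, Psmb5-ps, Psmb6-ps, Psmb6-ps2 and Psmb7-ps2 were all below 1 CPM in every library. Psmc3ip, which despite its name is a partner of meiotic recombinases, had 6.89 and 10.4 CPM in the mutant and 17.6, 23.4 and 22.5 CPM in the wild type.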
